A study of Mus musculus with 12 samples.

Results

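The lysosomal cathepsins, the subunits of the vacuolar ATPase (V-ATPase) and the lysosome-associated membrane proteins (LAMPs) were followed in mouse brain after photodynamic therapy. Members were taken by gene symbol: every name in the deposited table that begins with Cts and a letter, with Atp6v, or with Lamp and a digit, except names marked as pseudogenes. This gave 46 of the 54532 genes in the table, of which 19 were cathepsins, 23 were V-ATPase genes and 4 were LAMPs. Of the V-ATPase genes, 9 were named for the membrane sector V0 and 14 for the cytosolic sector V1. The pattern also takes in Atp6v1fnb, which is named as a neighbour of Atp6v1f and is not a subunit, and it leaves out Tcirg1, which encodes the a3 subunit of V0.

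Cathepsins are proteases of the lysosome, the compartment in which cells break down what they take up and what autophagy delivers. They work best at acid pH, which is kept by the V-ATPase, a rotary proton pump whose V1 sector splits ATP and whose V0 sector carries protons across the membrane. LAMP1 and LAMP2 are heavily glycosylated proteins of the lysosomal membrane, and in brain the cathepsins B, D, L, S and Z are known for their roles in microglia, the resident phagocytes, with cathepsin D also needed by neurons.

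RNA from brain tissue was sequenced in 12 libraries, 3 in each of 4 groups. Treated mice were injected with 5-aminolevulinic acid (5-ALA) at 20 mg/kg, a heme precursor that cells convert to the light-activated pigment protoporphyrin IX. After 30 min they received 635 nm laser light at 20 J per square centimetre, and they were perfused with 0.9% NaCl for collection of the brain at 1.5 h, 12 h or 48 h. All mice were kept under specific-pathogen-free conditions. The controls are labelled untreated and titled PBS, with no statement on an injection or light. Both BALB/c and C57BL/6 stand as the strain, no genetic modification is given, and neither brain region nor time of day is stated. Nothing ties a library to 1 animal of its own, so p-values here reflect library-to-library spread.

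Values are FPKM, the deposited unit of fragments per length of gene and depth of library, made by the authors. A gene was tested if it exceeded 0.5 FPKM in at least 3 of the 12 libraries, which kept 17664 genes and 31 of the 46 members: 11 cathepsins, 17 V-ATPase genes and 3 LAMPs. Changes are differences in log2(FPKM + 1) from limma with their standard errors (SE). A gene is said to have risen or fallen where its Benjamini-Hochberg adjusted p, over all 17664 genes, was below 0.05. Recovered reads per library ran between 15348579 and 17444654. Replicates 1 and 3 of the 1.5 h group stood apart: in them, the difference from the mean of all 12 libraries had a slope of -0.104 and -0.060 log2 units for each doubling of gene length, against -0.009 to 0.041 in the other 10 libraries. The share of reads on mitochondrial genes was 12.4% and 9.14% in them, against 4.16% to 6.14% elsewhere.

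Promoter sequences are shown for members that rose and members that did not pass the test at 48 h, since many lysosomal genes are known to carry an E-box of the form TCACGTG near their start, the element through which TFEB and related factors act. RefSeq promoter windows of build GRCm38.p6, 250 bases before and 50 bases after the start, were matched by symbol for 36 of the 46 members. TCACGTG on either strand (CACGTGA on the other) was found for 7 of the 36, or 19.4%, and for 4.29% of 27025 genes with a window. The palindrome TCACGTGA, which contains it, was found for 5 of the 36, or 13.9%, and for 1.12% of all genes. The shorter CACGTG, which both contain, was found for 10 of the 36, or 27.8%, against 8.09% of all genes. The 7 members with TCACGTG were Atp6v0b, Atp6v0d1, Atp6v0e, Atp6v1a, Ctsa, Ctsd and Lamp1. The 250 bases before the RefSeq start are printed for 5 genes, 5′ to 3′ on the strand of the gene, with TCACGTG or its reverse complement in capitals.
Ctsz: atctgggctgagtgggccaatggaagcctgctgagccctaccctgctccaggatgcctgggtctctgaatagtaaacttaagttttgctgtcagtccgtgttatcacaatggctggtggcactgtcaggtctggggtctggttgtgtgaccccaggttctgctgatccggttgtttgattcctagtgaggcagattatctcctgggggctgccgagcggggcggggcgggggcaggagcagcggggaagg
Ctsc: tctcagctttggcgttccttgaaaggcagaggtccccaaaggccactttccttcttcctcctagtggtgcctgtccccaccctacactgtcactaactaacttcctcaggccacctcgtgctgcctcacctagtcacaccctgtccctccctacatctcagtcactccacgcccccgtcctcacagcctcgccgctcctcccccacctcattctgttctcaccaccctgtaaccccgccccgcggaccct
Ctsd: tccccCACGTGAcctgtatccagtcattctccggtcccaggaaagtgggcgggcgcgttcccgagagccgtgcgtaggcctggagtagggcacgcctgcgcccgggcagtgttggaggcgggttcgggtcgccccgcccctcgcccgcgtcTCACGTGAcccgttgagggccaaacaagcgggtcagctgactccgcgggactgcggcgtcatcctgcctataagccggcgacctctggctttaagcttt
Lamp1: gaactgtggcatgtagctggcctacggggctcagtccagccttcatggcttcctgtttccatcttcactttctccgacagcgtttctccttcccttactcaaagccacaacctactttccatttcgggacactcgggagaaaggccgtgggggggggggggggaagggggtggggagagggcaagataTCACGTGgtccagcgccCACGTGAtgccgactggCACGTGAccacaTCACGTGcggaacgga
Atp6v1a: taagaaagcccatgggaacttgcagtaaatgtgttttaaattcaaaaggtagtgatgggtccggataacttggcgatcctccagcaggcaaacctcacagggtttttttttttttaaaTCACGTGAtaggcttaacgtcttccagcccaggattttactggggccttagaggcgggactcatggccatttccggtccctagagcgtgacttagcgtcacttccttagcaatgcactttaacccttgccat
These lie on GRCm38.p6 at chr2:174439040-174439289 (minus strand), chr7:88277835-88278084 (plus strand), chr7:142387828-142388077 (minus strand), chr8:13158911-13159160 (plus strand) and chr16:44139260-44139509 (minus strand). Ctsz and Ctsc, with large rises at 48 h, had no match in their windows. Ctsd, which also rose, had 2 matches. Of the other members that rose, Ctsa had TCACGTG, Ctsk, Ctsl, Ctss and Lamp2 did not, and Ctsb and Ctsh had no window. The 5 printed genes are examples, so they do not show whether a match goes with a rise. Lamp1, with 4, and Atp6v1a, with 1, did not pass the test at 48 h. RefSeq starts can differ from the gene coordinates of the deposited table. By those coordinates, the printed stretch of Atp6v1a and most of that of Ctsd lie inside the gene. Ctsa had more than 1 window, and its match was only in the window at chr2:164833523, inside the gene. A match describes these letters and is not a binding site.

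At 48 h after treatment, 9 of the 11 tested cathepsins rose, while 0 of the 17 tested V-ATPase members passed the test. The classes differed in SE, as given with the V-ATPase genes, so these counts were not made with equal sensitivity. Tcirg1, a V0 subunit gene outside the name pattern, did rise at 48 h and is described with the lists. Among 31 tested members, 10 rose and 1 fell against control, or 11 in all, beside 12.5% of all tested genes that changed in either direction, 7.50% that rose and 5.01% that fell. The 10 were 9 cathepsins (Ctsa, Ctsb, Ctsc, Ctsd, Ctsh, Ctsk, Ctsl, Ctss and Ctsz) and Lamp2. The gene that fell was Lamp5. The median change was 0.95 over the 11 tested cathepsins, 0.09 over the 17 V-ATPase genes and -0.00 over all tested genes. All 3 libraries at 48 h lay above all 3 control libraries for 15 of the 31 members and below them for 5, against 21.1% and 22.0% of all tested genes. In bulk tissue, more cells of a type and more RNA per cell cannot be told apart.

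**Figure D1:**
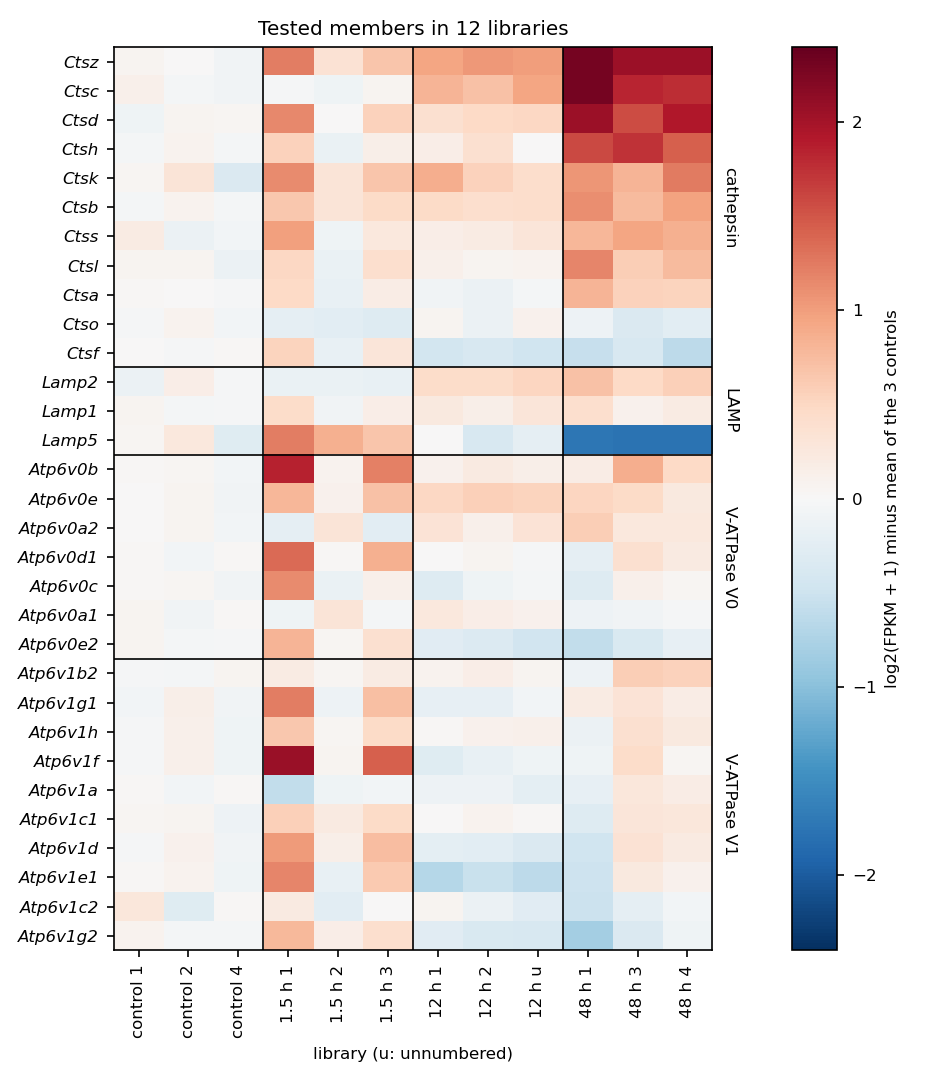
Difference of each tested member from the mean of the control libraries, in log2(FPKM + 1) units (colour), for 31 genes (rows, by class) in 12 libraries (columns: control, 1.5 h, 12 h, 48 h). Most cathepsin rows are high in all 3 libraries at 48 h, Lamp5 is low there, and many V-ATPase rows are high in 1.5 h replicates 1 and 3 but not in 1.5 h replicate 2.

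Cathepsin Z, a carboxypeptidase, had the largest change at 48 h on the log2(FPKM + 1) scale, while by the ratio of mean FPKM Ctsc, described next, changed more. Ctsz (GRCm38 chr2:174427493-174439039, minus strand) had 104, 87.9 and 88.0 FPKM in replicates 1, 3 and 4 of the 48 h group, against 21.5, 20.7 and 19.3 FPKM in control replicates 1, 2 and 4. The lowest library at 48 h stood above the highest control. The means were 93.3 ± 9.18 FPKM at 48 h and 20.5 ± 1.11 FPKM in controls (SD, n = 3 each), a ratio of 4.55 and a log2 change of 2.13 ± 0.19 (SE, limma adjusted p = 4.7e-05). At 12 h the 3 libraries had 40.1, 42.9 and 42.2 FPKM, so all 3 were above every control and below every 48 h library. At 1.5 h it had 49.5, 26.4 and 32.8 FPKM, also above every control, with a change of 0.75 ± 0.19 that did not pass (limma adjusted p = 0.086). The change at 12 h was 0.99 ± 0.19 (limma adjusted p = 0.0039).

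Cathepsin C, or dipeptidyl peptidase 1, activates granule serine proteases of immune cells. Ctsc (chr7:88278085-88310888, plus strand) had 8.78, 6.06 and 5.80 FPKM at 48 h, against 1.16, 0.937 and 0.886 FPKM in controls. Its 12 h libraries lay between them, at 2.52, 2.25 and 2.82 FPKM, with no overlap on either side. The 48 h mean of 6.88 ± 1.65 FPKM was 6.91 times the control mean of 0.996 ± 0.148 FPKM (SD, n = 3 each). On the log2(FPKM + 1) scale, which understates the change of so low a gene, the rise was 1.96 ± 0.15 at 48 h (limma adjusted p = 1.3e-05) and 0.82 ± 0.15 at 12 h (limma adjusted p = 0.0024). Ctsc and Ctsz were the cathepsins that rose at both 12 h and 48 h.

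Cathepsin D, an aspartic protease, had the highest mean over the 12 libraries among the tested cathepsins. Ctsd (chr7:142375911-142388038, minus strand) had 324, 232 and 296 FPKM at 48 h, against 71.7, 80.7 and 79.7 FPKM in controls. The groups did not overlap, and the log2 change was 1.85 ± 0.25 (SE, limma adjusted p = 0.00076). At 12 h its values of 101, 108 and 109 FPKM were all above control, but the change of 0.45 ± 0.25 did not pass the test (limma adjusted p = 0.24). In GENCODE, 34.4% of the exon bases of Ctsd are shared with Gm49369 on the same strand, so reads could be split between them.

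Cathepsin H, an aminopeptidase, was low in every control. Ctsh (chr9:90054152-90076089, plus strand) had 6.13, 6.94 and 5.42 FPKM at 48 h, against 1.31, 1.52 and 1.30 FPKM in controls. The change at 48 h was 1.59 ± 0.18 (SE, limma adjusted p = 0.0002), with a ratio of means of 4.48. Its 12 h libraries, at 1.64, 2.11 and 1.40 FPKM, overlapped the controls.

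Cathepsin B, an abundant cysteine protease, changed less in relative terms. Ctsb (chr14:63122462-63145923, plus strand) had 182, 143 and 166 FPKM at 48 h, against 81.5, 89.4 and 80.6 FPKM in controls, a change of 0.95 ± 0.14 (SE, limma adjusted p = 0.0016). All 3 libraries at 48 h were above all controls. Cathepsin L, a cysteine endopeptidase (Ctsl), had 31.0, 20.3 and 23.0 FPKM at 48 h, against 13.9, 13.9 and 11.8 FPKM in controls, a change of 0.84 ± 0.19 (limma adjusted p = 0.014). Opposite-strand exons cover 12.8% (Fdft1) of the exon bases of Ctsb and 26.9% (Gm47123) of those of Ctsl, and the sources used here do not say whether counting used strand.

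Cathepsin S, which trims the invariant chain for antigen presentation, had 62.9, 70.6 and 66.1 FPKM (Ctss) at 48 h, against 41.6, 32.4 and 34.5 FPKM in controls. Cathepsin K, best known as the collagenase of osteoclasts, had 5.97, 4.91 and 6.94 FPKM (Ctsk) at 48 h, against 2.45, 3.15 and 1.63 FPKM in controls. Cathepsin A, a serine carboxypeptidase that also protects lysosomal sialidase and galactosidase, had 35.2, 29.1 and 28.8 FPKM (Ctsa) at 48 h, against 19.9, 19.8 and 19.0 FPKM in controls. For each of these 3 genes the groups did not overlap. Their changes by limma were 0.87 ± 0.23 for Ctss (adjusted p = 0.030), 1.04 ± 0.23 for Ctsk (adjusted p = 0.013) and 0.64 ± 0.15 for Ctsa (adjusted p = 0.020). Leaving out any single library of the 6, or dropping the filter, ended the call of Ctss, Ctsa lost its call without 48 h replicate 1 or any single control, and Ctsk without 48 h replicate 4. Without control replicate 4, 5 cathepsins in place of 9 rose, and Ctsk, Ctsl, Ctss and Ctsa lost their calls. All tested genes were called at 8.39% in that setting, against 12.5% with all libraries.

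The other tested cathepsins had lower values that did not pass the test. Cathepsin F, a cysteine protease, had 20.7, 23.5 and 19.5 FPKM (Ctsf) at 48 h, against 30.8, 30.1 and 31.3 FPKM in controls. Every 48 h library was below every control, and so were the 12 h libraries at 22.4, 23.2 and 21.7 FPKM, but the changes of -0.52 ± 0.16 at 48 h (limma adjusted p = 0.060) and -0.44 ± 0.16 at 12 h (limma adjusted p = 0.079) did not pass. Ctsf did pass at 48 h, in the same direction, with quantile normalization, after correction for gene length, with only the 48 h and control libraries in the fit, and without 1.5 h replicates 1 and 3. Cathepsin O, a less studied cysteine protease (Ctso), had a mean of 3.39 ± 0.348 FPKM at 48 h and 4.21 ± 0.276 FPKM in controls, a change of -0.25 ± 0.11 (limma adjusted p = 0.17).

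**Figure D2:**
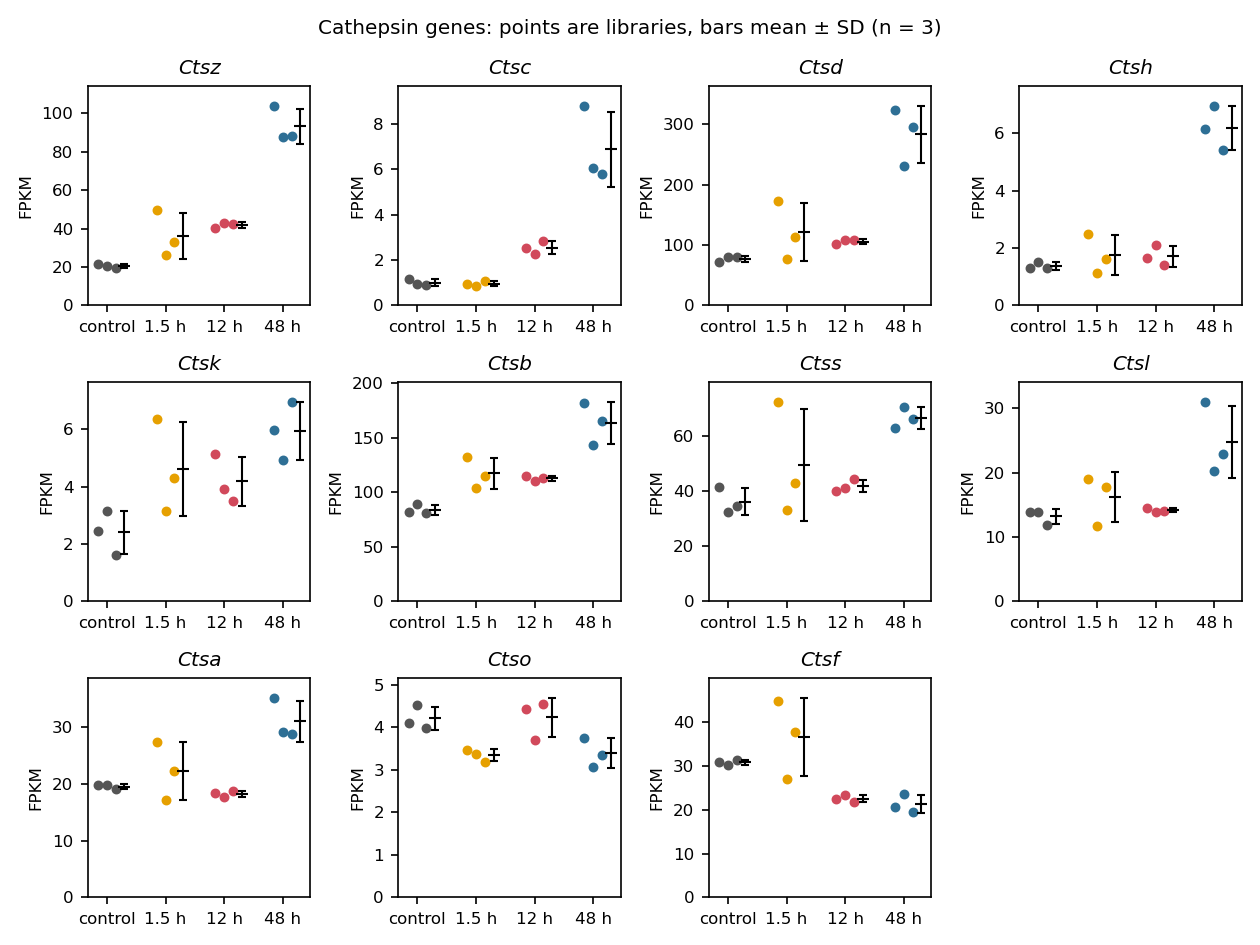
FPKM (vertical axes, each from 0) of the 11 tested cathepsins in the 4 groups, with 1 point per library and bars for the mean ± SD of 3 libraries. At 48 h, 9 of the genes lie above all controls and Ctsf and Ctso lie below all controls.

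Of the 8 cathepsins that were not tested, 6 had no read in any of the 12 libraries: Ctsg, a neutrophil granule protease, Ctsj, Ctsm, Ctsq and Ctsr, which belong to a rodent placental cluster, and the cathepsin L-like gene Ctsll3. A count of 0 allows up to 3 reads in a library, which covers counting error only. Cathepsin E, an endosomal aspartic protease of immune cells, had 18, 19 and 17 reads (Ctse) at 48 h, against 0, 0 and 1 in controls. The ratio of 54 to 1 reads, per unit of depth, was 50.7 with an exact 95% interval of 8.73 to 2040 that covers counting error only. Its level stayed at 0.305 ± 0.021 FPKM at 48 h, under the filter, and with no filter limma gave a change of 0.38 with an adjusted p of 4.9e-05. Cathepsin W, a protease of cytotoxic lymphocytes, had 22, 7 and 5 reads (Ctsw) at 48 h, against 4, 4 and 6 in controls, so the groups overlapped.

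Most of the cathepsins that were high at 48 h rose between 12 h and 48 h. At 48 h against 12 h, 7 of the 31 members rose (Ctsh, Ctsc, Ctsz, Ctsd, Ctsa, Ctsl and Ctsb) and 1 fell (Lamp5), or 8 in all, beside 15.6% of all tested genes, 5.88% that rose and 9.73% that fell. The summed level of the 19 cathepsins was 785, 628 and 709 FPKM at 48 h and 366, 370 and 376 FPKM at 12 h, while in controls it was 290, 297 and 284 FPKM. The largest changes in 48 h against 12 h were 1.40 ± 0.18 for Ctsh (SE, limma adjusted p = 0.00047) and 1.40 ± 0.25 for Ctsd (limma adjusted p = 0.0035). Ctsc and Ctsz each added 1.14 to their earlier rise. Ctsk did not pass the test in 48 h against 12 h, at 0.42 ± 0.23 (limma adjusted p = 0.25).

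At 12 h against control, 4 of the 31 members rose and 0 fell, or 4 in all. Of all tested genes, 21.2% changed, 13.3% rose and 7.90% fell. The share of members that rose was near that of all tested genes, so the count does not set the members apart. The 4 were Ctsc, Ctsz, Lamp2 and Atp6v0e. limma gave an unadjusted p under 0.05 for 7 of the 31, and voom on recovered reads called 5, beside 21.3% of all tested genes in that setting. The share of all tested genes under that unadjusted level was not counted. The median change at 12 h was 0.21 over the cathepsins and -0.12 over the V-ATPase genes.

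**Figure D3:**
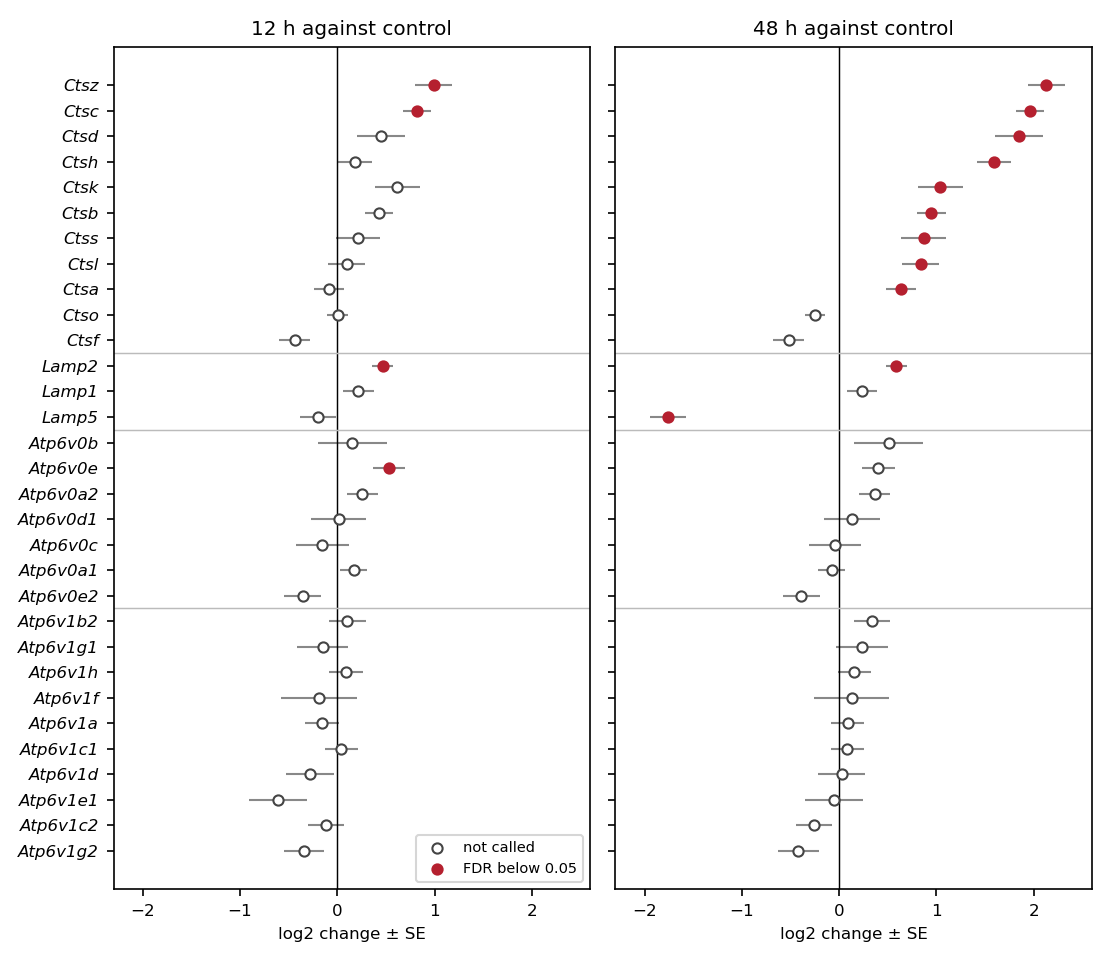
Change in log2(FPKM + 1) with its SE (horizontal axes) for the 31 tested members at 12 h against control and at 48 h against control, filled where the limma adjusted p was below 0.05. The cathepsins spread out to 2.13 at 48 h, while the V-ATPase genes lie between -0.42 and 0.51.

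The LAMP genes moved apart. Lamp2 (chrX:38401357-38456454, minus strand), whose product lines the lysosome and in one splice form serves chaperone-mediated autophagy, had 11.6, 9.82 and 10.5 FPKM at 48 h, against 6.05, 7.60 and 6.60 FPKM in controls. At 12 h it had 9.46, 9.54 and 10.1 FPKM, again above every control. The changes were 0.59 ± 0.11 at 48 h (SE, limma adjusted p = 0.0045) and 0.47 ± 0.11 at 12 h (limma adjusted p = 0.0098), and the table does not separate the splice forms. Lamp2 lost its 12 h call without control replicate 1.

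Lamp5, a LAMP of neurons that marks a class of cortical interneurons, fell. Lamp5 (chr2:136052239-136069917, plus strand) had 16.0, 15.5 and 15.5 FPKM at 48 h, against 57.5, 66.3 and 44.9 FPKM in controls, a change of -1.76 ± 0.18 (SE, limma adjusted p = 0.00014). The 48 h libraries were close together and all below the lowest control. At 12 h, Lamp5 had 56.2, 42.2 and 47.7 FPKM, overlapping the controls. At 1.5 h it had 132, 101 and 88.5 FPKM, all above the controls, with a change of 0.91 ± 0.18 (limma adjusted p = 0.057). The difference was -1.56 ± 0.18 for 48 h against 12 h (limma adjusted p = 0.00033) and -1.11 ± 0.18 for 12 h against 1.5 h (limma adjusted p = 0.0017).

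Other interneuron genes gave no downward call at 48 h. Of 10 markers of GABAergic interneurons, 1 rose at 48 h, Npy, a neuropeptide, and 0 fell by limma, beside 7.50% and 5.01% of all tested genes. Among them, 3 had an unadjusted p under 0.05, Npy included, and Lhx6 at -0.49 ± 0.17 had the smallest p among the others (adjusted p = 0.083). Of the 10, 7 had negative changes and the median was -0.13, while the summed level, which holds Npy, ran between 579 and 842 FPKM at 48 h and between 479 and 507 FPKM in controls. None was at 0 in all libraries. Of 12 neuronal markers, 0 were called by limma at 48 h (2 at an unadjusted p under 0.05), with sums of 913 to 1222 FPKM at 48 h and 1156 to 1243 FPKM in controls. The part of cell composition in the fall of Lamp5 was not tested.

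Lamp1, the most abundant LAMP, had 130, 105 and 111 FPKM at 48 h, against 102, 94.1 and 95.8 FPKM in controls. All 3 libraries at 48 h were higher, but the change of 0.24 ± 0.16 did not pass (limma adjusted p = 0.38). Lamp3, a LAMP of mature dendritic cells, stayed under 0.148 FPKM in every library and was not tested.

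**Figure D4:**
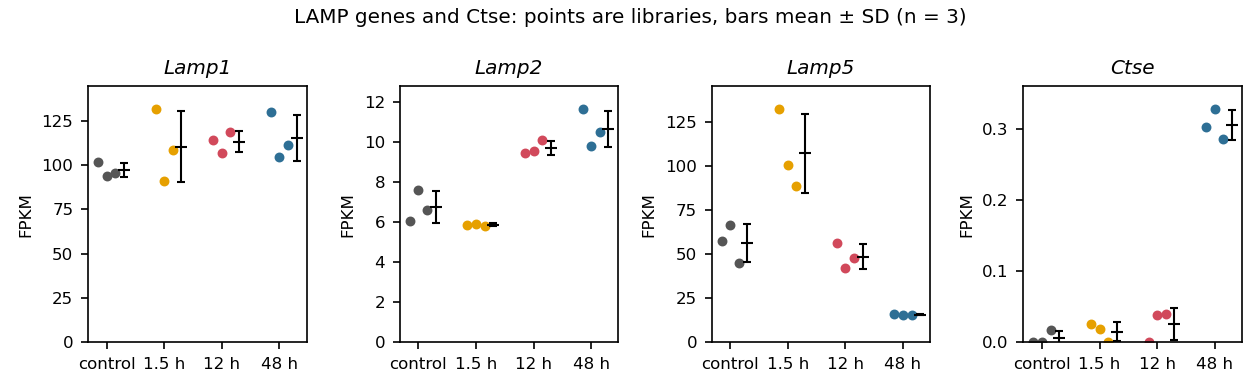
FPKM (vertical axes, each from 0) of Lamp1, Lamp2, Lamp5 and the low cathepsin gene Ctse in the 4 groups, with 1 point per library and bars for the mean ± SD of 3 libraries. Lamp5 falls to 15.7 FPKM at 48 h, and Ctse is at 0.305 FPKM at 48 h against 0.006 FPKM in controls.

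The V-ATPase members showed no call at 48 h: limma called 0 of the 17 tested genes, beside 12.5% of all tested genes. Voom on recovered reads called 0, beside 13.6% of all tested genes. With 17 genes, a count of 0 is not far from these shares. By limma, 2 had an unadjusted p under 0.05, and the share of all tested genes under that level was not counted. The changes ran between -0.42 for Atp6v1g2 and 0.51 for Atp6v0b. In V1, the catalytic A subunit gene Atp6v1a had 70.9, 98.7 and 91.8 FPKM at 48 h, against 83.3, 77.9 and 82.2 FPKM in controls. The brain B subunit gene Atp6v1b2 had 102, 169 and 164 FPKM at 48 h, against 110, 108 and 118 FPKM in controls. The regulatory H subunit gene Atp6v1h had 14.2, 20.8 and 18.5 FPKM at 48 h, against 15.5, 17.3 and 14.5 FPKM in controls. In all 3, replicate 1 at 48 h was below every control and the other two replicates were above every control. The median difference from control over the 17 genes was -0.19, 0.29 and 0.18 in replicates 1, 3 and 4 of the 48 h group, while for the cathepsins it was 1.11, 0.82 and 0.97.

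In V0, the d1 subunit gene Atp6v0d1 likewise had 112, 169 and 150 FPKM at 48 h, against 132, 124 and 132 FPKM in controls. Atp6v0d2, the d2 form known from osteoclasts and macrophages, had 4, 1 and 1 reads at 48 h and 0 reads in all controls, too few to test. Atp6v0e, for the small e1 subunit, had 10.8, 11.5 and 11.2 FPKM at 12 h, against 7.49, 7.85 and 6.96 FPKM in controls, with no overlap and a change of 0.53 ± 0.17 (SE, limma adjusted p = 0.045). Leaving out any single 12 h or control library, or dropping the filter, ended that call. At 48 h Atp6v0e had 11.1, 10.6 and 8.88 FPKM, also above every control, with a change of 0.40 ± 0.17 (limma adjusted p = 0.15).

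The count of 0 V-ATPase genes at 48 h changed with the libraries in the fit. Each gene had 1 estimate of spread from all 12 libraries, so the 1.5 h libraries entered the SE at 48 h. That SE ran between 0.14 (Atp6v0a1) and 0.39 (Atp6v1f) over the V-ATPase genes. Over the cathepsins it ran between 0.11 (Ctso) and 0.25 (Ctsd). A gene with a larger SE needs a larger change to be called, so the 2 counts of calls were not made with equal sensitivity. Without 1.5 h replicates 1 and 3, a setting added after the data were seen, 3 V-ATPase genes rose (Atp6v0b, Atp6v0a2 and Atp6v0e) and 1 fell (Atp6v0e2), while 9 cathepsins rose and 1 (Ctsf) fell, beside 26.5% of all tested genes called in that setting. Correction for gene length gave 1 rise (Atp6v0a2) and 1 fall (Atp6v0e2), quantile normalization 1 fall (Atp6v0e2), a fit of only the 48 h and control libraries 1 rise (Atp6v0e), and leaving out 48 h replicate 1 gave 1 rise (Atp6v1b2). In that order, all tested genes were called at 15%, 15.2%, 21.5% and 10.1%.

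Atp6v0c, for the proton-carrying c subunit of V0, is uncertain. It had 8.31, 11.5 and 11.0 FPKM at 48 h, against 10.8, 10.9 and 9.92 FPKM in controls, while its pseudogene Atp6v0c-ps2 had 509 to 645 FPKM at 48 h and 545 to 595 FPKM in controls. Between 7.71% and 12.6% of the reads of both fell on Atp6v0c, and near-identical copies can split reads. With both summed, added after the data were seen, the change at 48 h was 0.05, against -0.05 for Atp6v0c alone, and neither was called. The 6 V-ATPase genes that were not tested (Atp6v0a4, Atp6v0d2, Atp6v1b1, Atp6v1e2, Atp6v1fnb and Atp6v1g3) are known mainly from kidney, testis and bone, apart from the neighbour Atp6v1fnb.

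At 1.5 h against control, limma called 0 of the 31 members, beside 0.555% of all tested genes, with 14 at an unadjusted p under 0.05, and voom also called 0. The share of all tested genes under that unadjusted level was not counted. The values were spread within the group. Atp6v1f, for the small F subunit of the rotor, had 368, 90.7 and 236 FPKM in 1.5 h replicates 1, 2 and 3, against 85.8, 95 and 80.5 FPKM in controls. Replicates 1 and 3 were far above the controls and replicate 2 lay among them. Over the 17 tested V-ATPase genes the median difference from control was 0.80, 0.05 and 0.46 in these replicates. Their median fitted change at 1.5 h was 0.42, but 0.31 after correction for gene length and -0.01 with quantile normalization, and for the cathepsins it was 0.25, 0.17 and -0.03. Over the 7 V-ATPase genes shorter than 2700 bases, the median difference from control was 1.22, 0.05 and 0.71 in replicates 1, 2 and 3. Over the 10 V-ATPase genes of 2700 bases or more it was 0.61, 0.07 and 0.33. Across the 31 members, the difference correlated with log2 gene length at Pearson's r of -0.70 in replicate 1, -0.05 in replicate 2 and -0.58 in replicate 3, a description over genes that share a library. Without 1.5 h replicate 2, limma called 20 members, 8 cathepsins and 11 V-ATPase genes among them, beside 45.7% of all tested genes in that setting. The part of the length trend and the mitochondrial share in these values was not tested.

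**Figure D5:**
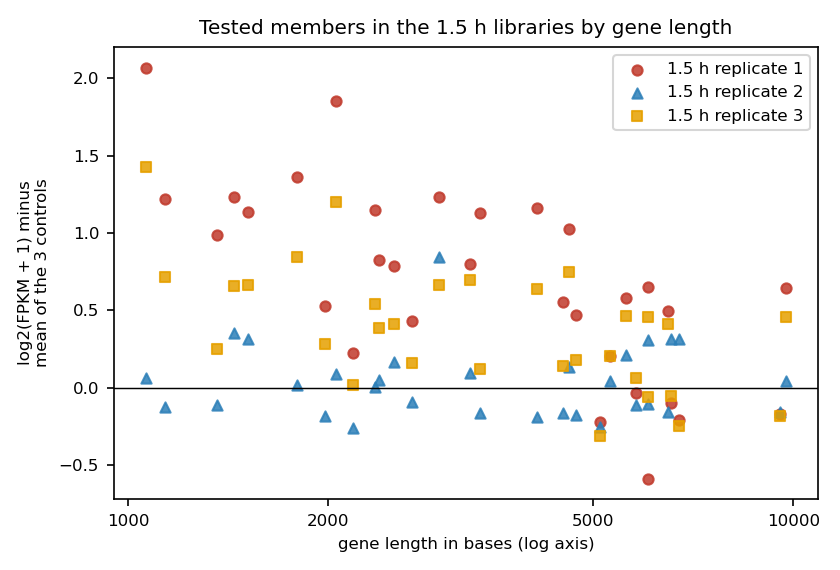
Difference from the control mean in log2(FPKM + 1) units (vertical axis) against gene length in bases (horizontal axis, log scale) for the 31 tested members in the 3 libraries taken at 1.5 h, 1 marker shape each. Short genes are higher than long ones in replicates 1 and 3, with r of -0.70 and -0.58, and no such slope appears in replicate 2, with r of -0.05.

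The comparison of 12 h against 1.5 h carries the same libraries. In it 2 members rose (Ctsc and Lamp2) and 8 fell (Ctsf, Lamp5, Atp6v0e2, Atp6v1e1, Atp6v1g2, Atp6v1d, Atp6v1f and Atp6v1g1), or 10 in all, beside 33.2% of all tested genes, 16.9% that rose and 16.3% that fell. Without 1.5 h replicates 1 and 3, the calls of Ctsf and of all 6 V-ATPase genes were lost, leaving those of Ctsc, Lamp2 and Lamp5 and adding that of Ctsz, beside 13.6% of all tested genes in that setting. After correction for gene length, all 6 V-ATPase genes were still called as falls, with a V-ATPase median of -0.47, against -0.52 without the correction. Ctsc was at 2.53 ± 0.286 FPKM at 12 h and 0.959 ± 0.12 FPKM at 1.5 h (SD, n = 3 each), a change of 0.85 ± 0.15 (SE, limma adjusted p = 0.0021).

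Regulators and partners of these proteins were counted from lists. The background at 48 h was 7.50% of all tested genes that rose and 5.01% that fell. A count of 1 rise among 19 or 15 genes is near it. Of 19 tested lysosomal regulators, 1 rose at 48 h, the two-pore channel gene Tpcn2, and 0 fell. Tfeb, Tfe3 and Mitf, which encode transcription factors of lysosomal genes, were not called at 48 h, with changes of 0.24 ± 0.20 (limma adjusted p = 0.50), 0.26 ± 0.12 (limma adjusted p = 0.20) and -0.05 ± 0.18 (limma adjusted p = 0.90). Of 15 tested genes in a list of Tcirg1 with V-ATPase accessory and assembly genes, 1 rose at 48 h. This was Tcirg1, which encodes a V0 subunit outside the name pattern and is not an accessory gene. It had 9.30, 5.16 and 6.38 FPKM at 48 h, against 3.52, 2.80 and 3.61 FPKM in controls, a change of 0.86 ± 0.18 (limma adjusted p = 0.0091). The accessory subunit genes Atp6ap1 and Atp6ap2 did not pass, at -0.10 ± 0.17 and 0.36 ± 0.13. Of 17 delivery and autophagy genes, 0 rose and 1 fell, the sorting receptor gene Sort1 at -1.21 ± 0.23 (limma adjusted p = 0.0058), and the autophagy receptor gene Sqstm1 had a change of -0.00 ± 0.17.

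Cathepsin inhibitors and the cathepsin-processing enzyme legumain were also counted. Of the 7 tested genes of this list, 4 rose at 48 h and 0 fell, beside 7.50% and 5.01% of all tested genes. Cst7, for cystatin F, an inhibitor of cathepsin C, had 2.71, 5.32 and 4.59 FPKM at 48 h, against 0.0586, 0.172 and 0 FPKM in controls, a change of 2.24 ± 0.19 (limma adjusted p = 2.8e-05). Lgmn, for the asparaginyl protease that processes several cathepsins, had 149, 120 and 128 FPKM at 48 h, against 43.1, 42.8 and 46.0 FPKM in controls, a change of 1.56 ± 0.15 (limma adjusted p = 6.1e-05). Serpina3n, a secreted serine protease inhibitor, changed by 3.19 ± 0.51 (limma adjusted p = 0.0023), and Cstb, for the cytosolic inhibitor cystatin B, by 1.60 ± 0.42 (limma adjusted p = 0.031). Cst3, for the secreted inhibitor cystatin C, was not called at 48 h, at -0.16 ± 0.45.

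Other lysosomal genes rose in part. A list of lysosomal hydrolases outside the cathepsins also held Grn, Psap and Gm2a, whose products are not hydrolases. Of its 31 tested genes, 9 rose at 48 h and 1 fell, beside 7.50% of all tested genes that rose and 5.01% that fell. The rises were led by Gusb, for beta-glucuronidase, at 1.84 ± 0.13 (limma adjusted p = 1.2e-05), and Grn, for the lysosomal protein progranulin, at 1.46 ± 0.17 (limma adjusted p = 0.00025). At 12 h, 1 of the 31 rose and 6 fell, beside 13.3% of all tested genes that rose and 7.90% that fell. Both directions together were near the 21.2% of all tested genes called. Gla, for alpha-galactosidase A, had a change of 1.62 ± 0.12 (limma adjusted p = 1e-05), and Acp2, for lysosomal acid phosphatase, one of -0.71 ± 0.10 (limma adjusted p = 0.00048). Of 21 other lysosomal membrane genes, 4 rose and 2 fell at 48 h, beside the same 7.50% and 5.01% of all tested genes. Cd68, a membrane protein of phagocyte lysosomes, had 47.9, 25.7 and 38.8 FPKM at 48 h, against 4.23, 5.32 and 5.05 FPKM in controls, a change of 2.67 ± 0.27 (limma adjusted p = 9.4e-05). At 1.5 h limma called 0 of the 110 genes tested in these 6 lists, beside 0.555% of all tested genes. Of the 110, 40 had an unadjusted p under 0.05 by limma, as did 32 of 89 entries in the lists of cell type markers. The share of all tested genes under that level was not counted.

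Markers of phagocytes also changed, with courses that differed between lists. The background for the marker counts was 7.50% of all tested genes that rose and 5.01% that fell at 48 h. At 12 h it was 13.3% and 7.90%. Of 12 markers of homeostatic microglia, 5 rose at 48 h (Olfml3, Fcrls, Cx3cr1, Csf1r and Aif1), with a summed level of 109 to 134 FPKM at 48 h and 67.6 to 79.2 FPKM in controls. The list's median change was 0.46, and 3 of the 12 had negative changes that did not pass: P2ry12 at -0.64 ± 0.22, Siglech at -0.62 ± 0.21 and Selplg at -0.36 ± 0.25. At 12 h, 10 of the 12 fell, with sums of 28.6 to 30.8 FPKM, while Ctsc and Ctsz were above control. Of 10 monocyte and macrophage markers, 4 were tested and 3 rose at 48 h (Cd14, Lyz2 and Msr1), with sums of 80.8 to 155 FPKM at 48 h and 5.80 to 6.44 FPKM in controls. At 12 h their sums were 86.2 to 119 FPKM. Of 12 neutrophil markers, 3 were tested, of which 2 rose at 12 h and 0 were called at 48 h. The 12 summed to 7.02 to 22.5 FPKM at 12 h and 1.53 to 3.60 FPKM at 48 h, against 0.883 to 1.43 FPKM in controls. None of these 3 lists had a marker at 0 in all 12 libraries. Of 10 astrocyte markers, 3 rose at 48 h (Gfap, Aldh1l1 and Aqp4) and 1 fell (Aldoc). In all, 6 of the 10 had negative changes and the median was -0.23, while the sums were 788 to 1015 FPKM at 48 h and 525 to 573 FPKM in controls, with Gfap at 4.69 ± 0.40. Of 10 endothelial markers, 2 rose at 48 h, with sums of 78.5 to 112 FPKM at 48 h and 44.7 to 55.7 FPKM in controls. The part of changed cell numbers in the cathepsin values was not tested.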

How the data were processed

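The 12 libraries of brain RNA fall into 4 groups, and the deposited table held FPKM values made by the authors. Per the submitters' processing notes, Bowtie 0.12.2 and the build mm8 were named. How reads were counted, and whether by strand, is not given in the sources used here. Of 54409 gene identifiers shared with GENCODE M21 on GRCm38, 98.33% agreed in both coordinates, and GRCm38 is used for positions. FPKM times gene length gave whole reads, within 0.05 of a read, and the scaling carried the authors' between-library size factors, so none was added. Of the columns, 11 matched a title, and 1 of the 12 h group matched none. That column carries the number 4, which no 12 h title has. It is called the unnumbered 12 h library here and is given last.

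Genes over 0.5 FPKM in at least 3 libraries were tested (17664). limma 3.58.1 (R 4.3.3) was run with its trend option on log2(FPKM + 1), in a single model of the 12 libraries with 8 residual and 3.09 prior degrees of freedom. Tests were two-sided, with p-values adjusted by Benjamini-Hochberg over all tested genes. The procedure was tested on simulated data. Within-group correlations across genes ran from 0.919 to 0.987, and no library was a copy of another, with pairs differing by at least 8.28 times counting noise. Comparisons with control share the 3 control libraries. Alternatives were other pseudocounts, filters and normalizations, correction for gene length, fits of 2 groups, a replicate block, voom on recovered reads, and libraries left out. Genes are named by a rule: all called members, fixed members, and per list those of smallest p with fixed names. Examples of reads in members that were not tested were picked with their values in view. The members and lists were chosen with earlier results of these data known. Promoters are from RefSeq.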

Additional observations from a re-analysis of the deposited data

Results flagged for a closer look

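The change from control differed between times for 16 members, by limma's test of the difference (Benjamini-Hochberg adjusted p below 0.05). For 12 h against 1.5 h these were 10 of the 31 tested members, beside 33.2% of all tested genes, a share near that background. The difference 12 h minus 1.5 h, in log2(FPKM + 1) units, was 0.85 for Ctsc, 0.64 for Lamp2, -0.65 for Ctsf and -1.11 for Lamp5. For the V-ATPase genes it was -0.77 for Atp6v0e2, -1.15 for Atp6v1e1, -0.79 for Atp6v1g2, -0.92 for Atp6v1d, -1.37 for Atp6v1f and -0.76 for Atp6v1g1. None of these 6 V-ATPase genes kept its call without 1.5 h replicates 1 and 3, and all 6 kept it after correction for gene length.

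For 48 h against 12 h, 8 of the 31 tested members were called, beside 15.6% of all tested genes. The difference 48 h minus 12 h was 1.40 for Ctsh, 1.40 for Ctsd, 1.14 for Ctsc and 1.14 for Ctsz. It was 0.73 for Ctsa, 0.74 for Ctsl, 0.52 for Ctsb and -1.56 for Lamp5. Ctsl and Ctsb lost this call when single 12 h or 48 h libraries were left out.

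Outside the members, the pseudogene Atp6v0c-ps1 had 12 recovered reads in the 12 h libraries together (7, 3 and 2), against 0 in the control libraries. It also had 1 read in 1.5 h replicate 2. It was under the filter and was not tested, and near-identical copies can split reads.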

How the results depend on the processing

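Under the alternatives run, no called member reversed its direction. At 12 h against control, 4 members were called, but 7 with quantile normalization, 14 with only the 12 h and control libraries in the fit, and 10 without 1.5 h replicates 1 and 3, a setting added after the data were seen. All tested genes were called at 26.1%, 41.2% and 35.2% in these settings. At 1.5 h against control, a filter of over 2 FPKM called 1 (Lamp5) in place of 0, beside 1% of all genes tested in that setting. At 12 h against 1.5 h, 10 were called, but 3 with only these groups in the fit and 4 without 1.5 h replicates 1 and 3, beside 13.5% and 13.6% of all tested genes. Whether numbers shared by replicates pair the libraries is not known. Deviations of 11 same-numbered pairs correlated at a median of -0.0035 (-0.264 to 0.156). Pairs with different numbers were not compared and the unnumbered 12 h library was left out, so these values cannot exclude a pairing. A replicate block called 0 at 1.5 h and 0 at 12 h against control, 6 at 48 h against control, 2 at 12 h against 1.5 h and 2 at 48 h against 12 h, and kept 10 of 33 gene calls. In that order, it called 0.0226%, 7.48%, 4.1%, 6.4% and 2.66% of all tested genes. In this block the unnumbered 12 h library had a level of its own, so it did not inform the 12 h estimate. With 1 library left out at a time, the counts ran from 0 to 20 at 1.5 h, 2 to 3 at 12 h and 7 to 10 at 48 h against control, 6 to 17 at 12 h against 1.5 h and 6 to 8 at 48 h against 12 h. All tested genes were then called at 13% to 15.4% at 12 h and 6.83% to 10.1% at 48 h against control, and at 9.14% to 15% at 48 h against 12 h. The count of 20 came without 1.5 h replicate 2, as did that of 17 (45.7% and 54.7% of all tested genes), and the count of 7 without control replicate 4 (8.39%). Without 1.5 h replicate 3, or without the unnumbered 12 h library, 6 were called at 12 h against 1.5 h (19.3% and 20.8% of all tested genes). Leaving out control replicate 1 gave 2 calls at 12 h against control (13.2%). The cause was not tested. At 48 h, Ctsc, Ctsz, Ctsh, Ctsd, Ctsb and Lamp5 kept their calls in all 15 alternatives. With 3 libraries a group, small changes could not be resolved, and depth limits Ctse, Ctsw and Atp6v0d2, which had 22 reads or fewer per library.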
